A study of Mus musculus with 6 samples.

Results

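Nuclear regulators of mitochondrial biogenesis were examined in mouse fully-grown germinal vesicle (GV) oocytes, whose meiosis is paused at first prophase. The 7 genes were chosen by name for their known role: the coactivators Ppargc1a, Ppargc1b and Pprc1, and the DNA-binding factors Nrf1, Gabpa, Gabpb1 and Esrra. They were matched by gene symbol among 28738 Ensembl gene IDs, and all 7 passed the filter on low values that kept 17450 genes for testing. RNA sequencing was done on 3 libraries from oocytes with a conditional knockout of Uba3 (Uba3 cKO) and 3 from control oocytes, each from a pool of about 150 oocytes of the C57/Bl6/N;129SvEv7 strain. The UBA3 protein is the catalytic part of the NEDD8-activating enzyme, which starts the attachment of the ubiquitin-like modifier NEDD8 to cullins and other proteins. The Cre driver, the deleted part of Uba3, the genotype of the control mice and the age of the mice are not given in the sources used here. No label states that pools were drawn from different mice, so the p-values reflect pool-to-pool spread, which may be technical.

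Mitochondrial proteins are encoded in both genomes, and most are encoded in the nucleus. The transcription factors NRF-1, GABP and ERR alpha bind the promoters of nuclear genes for the respiratory chain and for mitochondrial DNA transcription, and coactivators of the PGC-1 family dock on such factors without binding DNA themselves. Mitochondrial number rises steeply during oocyte growth, and the fully-grown oocyte passes its mitochondria to the embryo. The gene symbol Nrf1 stands for nuclear respiratory factor 1, which is a different gene from Nfe2l1 and Nfe2l2.

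The values below are log2 values as normalized by the authors, from libraries of unknown depth. Uba3 stood at 10.03, 10.16 and 10.36 in Uba3 cKO replicates 1, 2 and 3, against 11.37, 11.46 and 11.34 in control replicates 1, 2 and 3, so the groups were apart. Pearson correlations between libraries across the kept genes were 0.9948 or higher. Of 16 oocyte markers all were kept, and their summed linear values lay between 462900 and 518300 in Uba3 cKO libraries and between 524100 and 578000 in control libraries. The summed markers of granulosa and cumulus cells (16 listed, 14 kept) ranged from 19960 to 24560 in Uba3 cKO libraries and from 22310 to 31460 in control libraries. Those of theca, stroma and luteal cells (15 listed, 14 kept) ranged from 2658 to 3389 in Uba3 cKO libraries and from 3736 to 5864 in control libraries. Blood and immune markers (11 listed, 8 kept) summed to between 544.8 and 595.9 in Uba3 cKO libraries and between 593.8 and 708.3 in control libraries. Endothelial markers (8 listed, all kept) summed to between 3794 and 4311 in Uba3 cKO libraries and between 3718 and 4059 in control libraries. At an adjusted p under 0.05 in limma, 6 theca, stroma and luteal markers fell and none rose. Of oocyte markers 1 rose and 2 fell, and of granulosa and cumulus markers 2 rose and 2 fell. Of blood and immune markers 2 fell, of endothelial markers 1 fell, and none of either list rose. Among all tested genes, 5.64% were called higher and 2.50% lower. Levels within the somatic lists were uneven, as markers chosen after their values were seen show. The granulosa gene Inhbb (mean log2 value 11.6 in Uba3 cKO, 12.3 in control) and the steroid-synthesis genes Hsd3b1 (10.3 in Uba3 cKO, 10.9 in control) and Cyp11a1 (8.16 in Uba3 cKO, 9.26 in control) were abundant. Not every abundant granulosa marker was lower in Uba3 cKO libraries. Amh (9.55 in Uba3 cKO, 9.15 in control) and Kitl (10.1 in Uba3 cKO, 9.68 in control) had higher means there. The cumulus expansion gene Ptx3 (1.54 in Uba3 cKO, 1.56 in control) and the theca gene Insl3 (1.39 in Uba3 cKO, 1.42 in control) were near the low end of the table. The part of other cell types in the results below was not tested. In pooled oocytes, fewer cells that express a gene and less of its RNA per cell cannot be told apart.

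The start regions of the members are shown because the factors are known to act on promoters of genes in their own network. For 6 of the 7 genes, RefSeq windows (GRCm38.p6) from 250 bases before to 50 bases after an annotated start site were read. These were 8 windows in all, and 4 short motifs were searched on both strands. Ppargc1b was left out of the search, so whether its start region holds any of the motifs was not tested. The cores were CATGCGC for NRF-1, CCGGAAG for ETS factors such as GABP, AAGGTCA for the ERR site and TGACGTC for the cAMP response element, and none of these contains another. They occur in 3.91%, 8.86%, 4.72% and 3.21% of all 32851 windows of this length. Matches were found in 2 of the 8 windows, and capitals mark them below.
Gabpa (chr16:84834874-84835173, plus strand): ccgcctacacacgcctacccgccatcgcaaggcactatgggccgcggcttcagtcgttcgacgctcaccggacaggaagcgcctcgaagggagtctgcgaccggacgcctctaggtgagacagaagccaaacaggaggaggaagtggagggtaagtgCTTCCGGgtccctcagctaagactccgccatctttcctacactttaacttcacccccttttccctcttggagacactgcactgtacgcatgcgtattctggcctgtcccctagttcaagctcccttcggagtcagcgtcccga
Esrra (chr19:6921759-6922058, minus strand): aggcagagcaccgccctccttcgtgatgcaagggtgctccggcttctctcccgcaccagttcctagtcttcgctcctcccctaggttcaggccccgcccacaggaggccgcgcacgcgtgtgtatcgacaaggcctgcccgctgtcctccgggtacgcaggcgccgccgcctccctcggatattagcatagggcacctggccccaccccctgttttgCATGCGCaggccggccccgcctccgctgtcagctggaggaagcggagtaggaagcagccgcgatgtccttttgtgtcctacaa
Ppargc1a (chr5:51567676-51567975, minus strand): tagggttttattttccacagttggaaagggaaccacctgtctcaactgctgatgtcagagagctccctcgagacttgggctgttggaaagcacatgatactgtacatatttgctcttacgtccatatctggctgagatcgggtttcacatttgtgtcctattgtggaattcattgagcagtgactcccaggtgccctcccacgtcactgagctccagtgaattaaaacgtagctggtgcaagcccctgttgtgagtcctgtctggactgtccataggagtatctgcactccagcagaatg
The Gabpa window held the ETS core on the opposite strand, beginning at position -93 from the start site, and the Esrra window held the NRF-1 core at position -33. The window of Ppargc1a is shown because that gene was the 1 member called between the groups, and it held none of the 4 cores. Any other start site of Ppargc1a, which has 5 annotated transcripts, was not searched, so this result covers the printed window only. A match is a run of letters and not a measured binding site.

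Of the 7 members, Ppargc1a rose in Uba3 cKO oocytes, none fell and 6 were not called at an adjusted p under 0.05 (limma, Benjamini-Hochberg over all 17450 genes). Over all tested genes, 8.14% were called, 5.64% higher and 2.50% lower, so 1 call among 7 genes is near that background. The differences of 6 members were above 0 and that of Esrra was below 0. Their median was 0.16 on the log2 scale, beside -0.01 over all tested genes. It was 0.12 once each library was adjusted for the length and GC content of transcripts. In the fits without 1 library it ranged from 0.13 to 0.17. The groups did not overlap for 3 members, Ppargc1a, Ppargc1b and Gabpa, all higher in Uba3 cKO oocytes. Over all tested genes the groups did not overlap for 27.9%, and for 15.1% with the Uba3 cKO group higher.

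**Figure D1:**
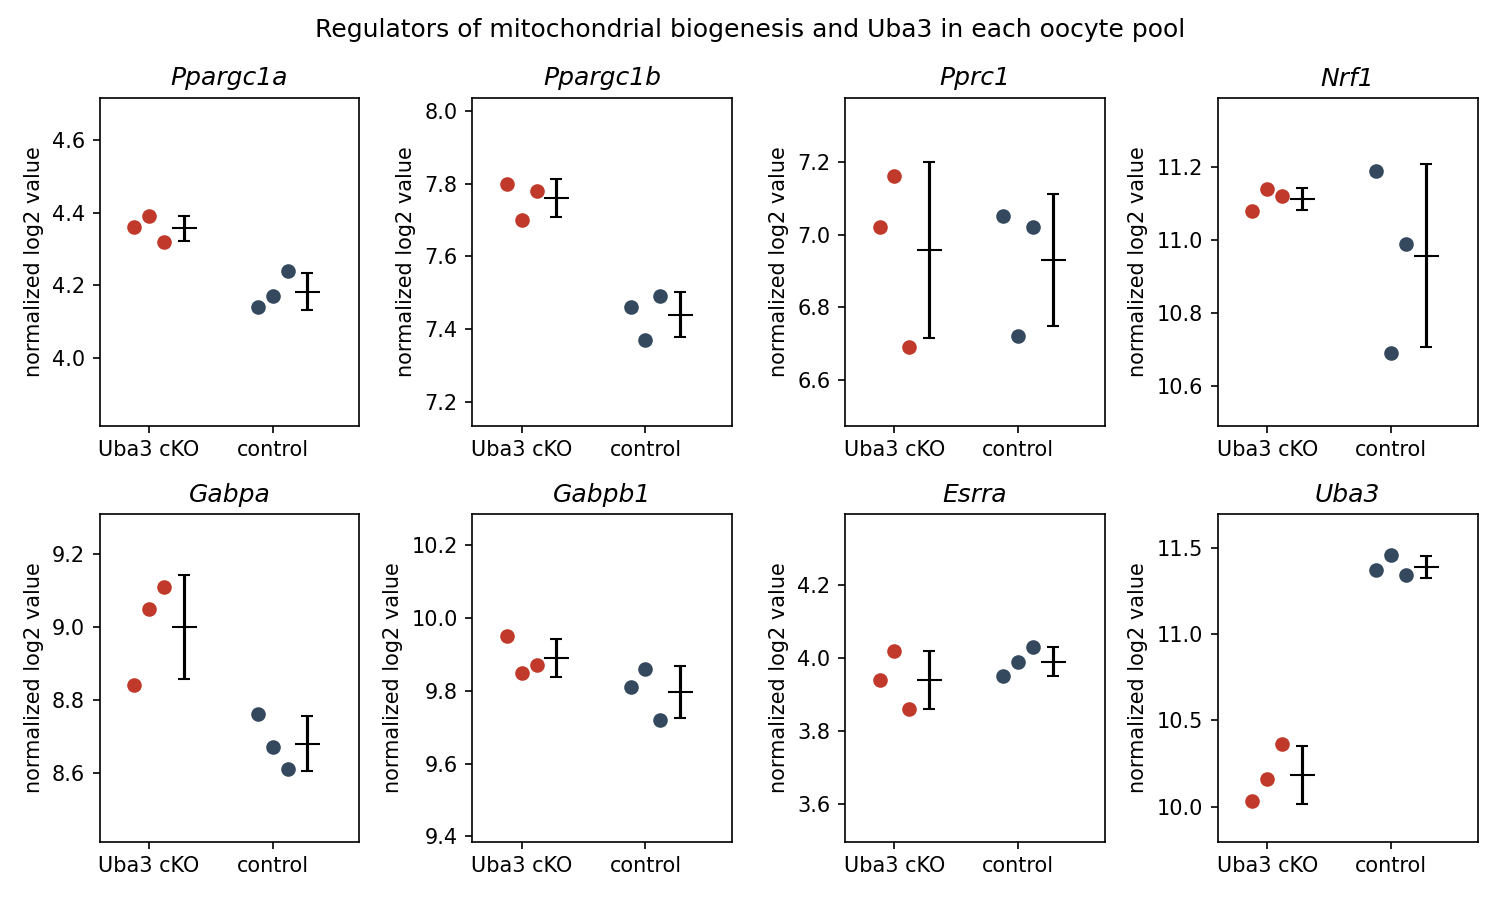
Normalized log2 values of the 7 regulators and Uba3 in each oocyte pool. Points are libraries in replicate order within each group, Uba3 cKO left and control right, with mean and SD (n = 3) beside them, and the 7 regulators share 1 axis span around their own level while Uba3 has a wider one. Ppargc1a, Ppargc1b and Gabpa are the regulators whose groups do not overlap.

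Among the coactivators, Ppargc1a encodes PGC-1 alpha, the inducible member of the family. It stood at 4.36, 4.39 and 4.32 in Uba3 cKO replicates 1, 2 and 3, against 4.14, 4.17 and 4.24 in control replicates 1, 2 and 3. Every Uba3 cKO library was above every control library, and the pools of each group lay close together. The mean was 4.36 ± 0.03 in Uba3 cKO oocytes and 4.19 ± 0.05 in control oocytes (SD, n = 3 each), a log2 difference of 0.17 (SE 0.05, 95% interval 0.07 to 0.28, adjusted p = 0.0393 in limma), or 1.13-fold. The level is low, and only 11.7% of the kept genes were lower. Replicates of genes at this level lay closer together in the deposited values than those of genes in the middle of the range: the median SD was 0.07 among 1870 genes between 4 and 5, against 0.13 among 2034 genes between 9 and 10. If low values were shrunken by the authors' transform, the difference of Ppargc1a is understated and its interval too narrow, and the same holds for Esrra, at a like level; this was not tested. The call ended without any single library (adjusted p 0.0528 to 0.125, difference 0.15 to 0.20). It also ended once each library was adjusted for the length and GC content of transcripts, with a difference of 0.12 and an adjusted p of 0.217 in limma.

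Ppargc1b encodes PGC-1 beta, the coactivator related most closely to PGC-1 alpha. It stood at 7.80, 7.70 and 7.78 in Uba3 cKO libraries, against 7.46, 7.37 and 7.49 in control libraries. The lowest Uba3 cKO library was above the highest control library. The mean was 7.76 ± 0.06 in Uba3 cKO oocytes and 7.44 ± 0.06 in control oocytes (SD, n = 3 each), a log2 difference of 0.32 (SE 0.10, 95% interval 0.11 to 0.52), or 1.25-fold. The adjusted p of 0.0578 in limma missed the threshold. Ppargc1b passed it without the intensity trend in the variance model (adjusted p = 0.0290) and after the length and GC correction (0.36, adjusted p = 0.0263 in limma). It did not pass it in the other 10 settings, nor in any of the 6 fits without 1 library (adjusted p 0.0693 to 0.181).

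Pprc1 encodes PRC, a coactivator of the same family that responds to growth signals. It stood at 7.02, 7.16 and 6.69 in Uba3 cKO libraries, against 7.05, 6.72 and 7.02 in control libraries. The groups overlapped fully, with 1 low library in each. The mean was 6.95 ± 0.24 in Uba3 cKO oocytes and 6.93 ± 0.18 in control oocytes (SD, n = 3 each). The log2 difference was 0.03 with a 95% interval of -0.25 to 0.30, so these pools allow anything from 0.842-fold to 1.23-fold of the control level. Its annotated exons share 177 bases (2.82%) with Ldb1 on the opposite strand, and the strand setting of the counting is not given in the sources used here.

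Nrf1 encodes NRF-1, which binds promoters of many genes of the respiratory chain. Its normalized value was above that of 84.6% of the kept genes. It stood at 11.08, 11.14 and 11.12 in Uba3 cKO libraries, against 11.19, 10.69 and 10.99 in control libraries. The Uba3 cKO pools were nearly alike, while the control pools spread above and below them. The mean was 11.11 ± 0.03 in Uba3 cKO oocytes and 10.96 ± 0.25 in control oocytes (SD, n = 3 each), a log2 difference of 0.16 (SE 0.12, adjusted p = 0.460 in limma). Without control replicate 2 the difference was 0.02, and without control replicate 1 it was 0.27. The difference thus shifted with both of these control pools, down without the lowest (replicate 2) and up without the highest (replicate 1).

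GABP, also called NRF-2 in this setting, joins an alpha subunit that binds DNA and a beta subunit that activates transcription. Gabpa, the alpha subunit, stood at 8.84, 9.05 and 9.11 in Uba3 cKO libraries, against 8.76, 8.67 and 8.61 in control libraries. The groups did not overlap, but Uba3 cKO replicate 1 lay close to control replicate 1. The mean was 9.00 ± 0.14 in Uba3 cKO oocytes and 8.68 ± 0.08 in control oocytes (SD, n = 3 each), a log2 difference of 0.32 (SE 0.11, 95% interval 0.09 to 0.55), or 1.25-fold. It was not called, with an adjusted p of 0.0852 in limma. In the GRCm38 annotation Gabpa lies head to head with Atp5j, a subunit gene of ATP synthase, and 397 bases (6.98%) of the Gabpa exons overlap it on the opposite strand. Atp5j averaged 9.00 ± 0.12 in Uba3 cKO oocytes and 9.04 ± 0.16 in control oocytes (SD, n = 3 each), a log2 difference of -0.04 (SE 0.11).

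Gabpb1, the beta subunit gene among the 7, stood at 9.95, 9.85 and 9.87 in Uba3 cKO libraries, against 9.81, 9.86 and 9.72 in control libraries. The groups overlapped, and the log2 difference of 0.10 (SE 0.10, 95% interval -0.11 to 0.30) was not called. Its paralogue Gabpb2, chosen after its values were seen, stood at 8.75, 8.97 and 8.47 in Uba3 cKO libraries, against 9.33, 8.97 and 8.94 in control libraries. Its log2 difference of -0.35 (SE 0.14, adjusted p = 0.152 in limma) was not called either, and the groups overlapped around 8.97. Per kilobase of exons, Gabpb1 made up 82.1%, 78.6% and 84.0% of the sum of both beta subunit genes in Uba3 cKO replicates 1, 2 and 3, against 73.6%, 78.7% and 77.5% in control replicates 1, 2 and 3. Those shares overlapped by a narrow margin, at Uba3 cKO replicate 2 and control replicate 2. They rest on the length of all annotated exons of each gene, and which transcripts the oocytes held was not tested.

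**Figure D2:**
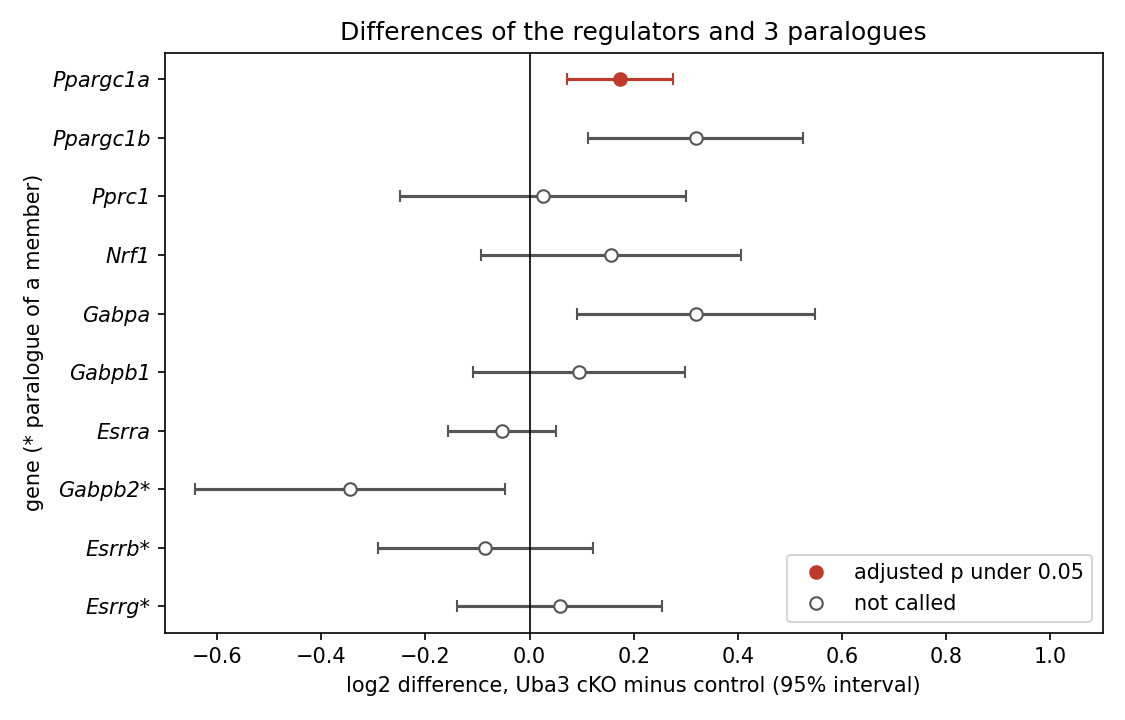
Log2 difference of each regulator and of 3 paralogues, Uba3 cKO minus control, on the x axis with its 95% interval from limma, 1 gene per line. Filled points have an adjusted p under 0.05, which Ppargc1a alone reached in the reported fit; the intervals of Ppargc1b, Gabpa and Gabpb2 also exclude 0 before adjustment over all genes.

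Esrra encodes ERR alpha, an orphan nuclear receptor and a main partner of PGC-1 alpha in muscle and liver. It was near the low end of the kept genes, with only 8.2% lower. It stood at 3.94, 4.02 and 3.86 in Uba3 cKO libraries, against 3.95, 3.99 and 4.03 in control libraries. The groups overlapped, with a log2 difference of -0.05 (SE 0.05, 95% interval -0.16 to 0.05, adjusted p = 0.557 in limma). At this low level the interval does not bound the change in RNA, since shrinkage of low values was not tested. Its exons share 73 bases (1.66%) with Trmt112, on the opposite strand, whose mean was 10.04 in Uba3 cKO oocytes and 10.21 in control oocytes. The other members of the receptor family, chosen after their values were seen, stood at higher levels. Esrrb, a receptor known for its role in pluripotent cells, averaged 10.25 ± 0.10 in Uba3 cKO oocytes and 10.33 ± 0.07 in control oocytes (SD, n = 3 each). Esrrg, which like ERR alpha activates genes of oxidative metabolism, averaged 10.53 ± 0.02 in Uba3 cKO oocytes and 10.47 ± 0.08 in control oocytes (SD, n = 3 each). Neither was called, with log2 differences of -0.08 (95% interval -0.29 to 0.12) for Esrrb and 0.06 (95% interval -0.14 to 0.26) for Esrrg.

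To compare levels between genes, each linear value was divided by the gene's exon length in kilobases. The following levels are log2 of the linear value per kilobase. That length counts every exon annotated for the gene, and which transcripts the oocytes held was not tested, so the order depends on the annotation. Esrrg, Esrrb and Nrf1 were the highest. Esrrg ranged from 7.87 to 7.92 in Uba3 cKO and from 7.76 to 7.92 in control libraries, Esrrb from 7.59 to 7.76 in Uba3 cKO and from 7.69 to 7.81 in control libraries, and Nrf1 from 7.72 to 7.77 in Uba3 cKO and from 7.33 to 7.83 in control libraries. In Uba3 cKO libraries Esrrg was apart from Nrf1, while Nrf1 and Esrrb overlapped. In control libraries the ranges of Esrrg and Esrrb overlapped, as did those of Esrrb and Nrf1. Gabpb1 came next (6.90 to 6.99 in Uba3 cKO, 6.77 to 6.90 in control), followed by Gabpa (6.33 to 6.60 in Uba3 cKO, 6.10 to 6.26 in control). Ppargc1b followed (5.70 to 5.81 in Uba3 cKO, 5.37 to 5.50 in control). Gabpb2 ranged from 4.52 to 5.02 in Uba3 cKO libraries, below Ppargc1b, and from 4.99 to 5.38 in control libraries, where its range overlapped that of Ppargc1b. Before the division, Gabpb2 (mean 8.73 in Uba3 cKO, 9.08 in control) lay above Ppargc1b (7.76 in Uba3 cKO, 7.44 in control). The annotated exons span 15.46 kilobases for Gabpb2 and 3.99 for Ppargc1b. Pprc1 ranged from 4.03 to 4.50 in Uba3 cKO and from 4.06 to 4.40 in control libraries.

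The lowest levels per kilobase were those of Esrra and Ppargc1a. Esrra ranged from 1.72 to 1.89 in Uba3 cKO and from 1.82 to 1.90 in control libraries, and Ppargc1a, below it in both groups, from 1.60 to 1.67 in Uba3 cKO and from 1.42 to 1.52 in control libraries. Ppargc1b made up 70.3% ± 3.6 of the summed level per kilobase of the 3 coactivators in Uba3 cKO oocytes and 66.3% ± 1.6 in control oocytes (SD, n = 3 each). Ppargc1a made up 4.02% ± 0.09 in Uba3 cKO and 4.20% ± 0.28 in control oocytes (SD, n = 3 each), so its share overlapped between the groups although its level was called. Esrra made up 0.791% ± 0.058 of the 3 receptors in Uba3 cKO and 0.815% ± 0.052 in control oocytes (SD, n = 3 each). These shares assume that the deposited values turn back into linear values without shrinkage. They also assume that the length of all annotated exons stands for that of the transcripts in the oocytes, which was not tested.

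**Figure D3:**
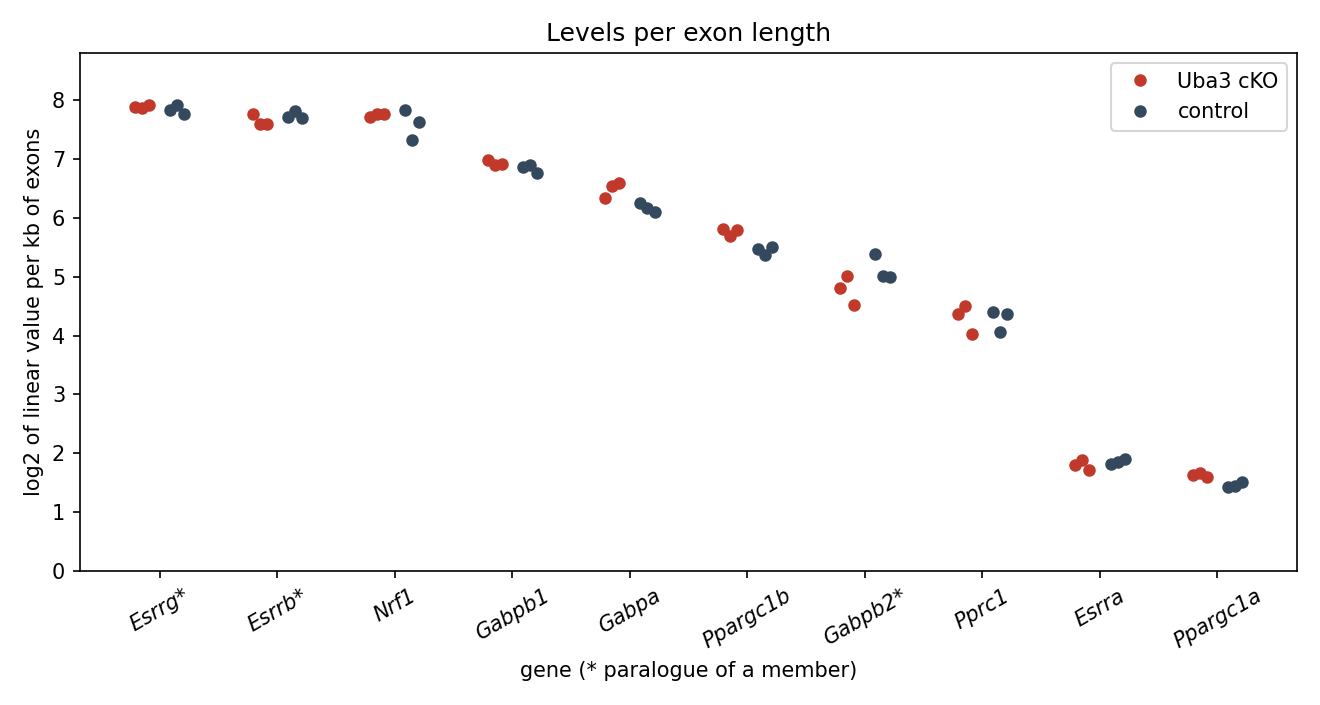
Level of each regulator and of 3 paralogues (marked *) as log2 of the linear value per kilobase of all annotated exons, on the y axis, with genes ordered by level on the x axis. Points are libraries, Uba3 cKO left and control right; Esrra and Ppargc1a lie below 2 in all 6 libraries, while Nrf1, Esrrb and Esrrg lie above 7.

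Around the members, 5 lists held 76 genes, of which 73 were kept. Of these, 7 rose, 2 fell and 64 were not called, beside 8.14% called over all genes, 5.64% higher and 2.50% lower. AMPK phosphorylates PGC-1 alpha, and none of the 6 kept subunit genes was called by limma (2 had an unadjusted p under 0.05), with a median log2 difference of -0.07. The subunit genes with the highest levels had differences of -0.25 for Prkab1 (SE 0.11, adjusted p = 0.189 in limma) and -0.10 for Prkag1. Prkaa2, a catalytic subunit chosen after its values were seen, had a difference of -0.35 (SE 0.11, adjusted p = 0.0615 in limma) and groups that did not overlap. Without control replicate 1, the 1 subunit gene called lower was Prkab1 (-0.36, adjusted p = 0.0408 in limma). After the length and GC correction, with or without the replicate block, 1 subunit gene was called lower. The same held without control replicate 3. In these settings the called gene was neither Prkab1 nor Prkag1. Of 16 modifiers and cofactors of the coactivators 2 rose, none fell, and the median was 0.02. Sirt1, the deacetylase that activates PGC-1 alpha, stood at 12.32, 12.26 and 12.54 in Uba3 cKO libraries, against 11.96, 11.68 and 11.59 in control libraries. Its groups were well apart, with a log2 difference of 0.63 (SE 0.11, adjusted p = 0.00351 in limma), 1.55-fold. Gsk3b, a kinase that marks PGC-1 alpha for degradation, rose by 0.50 (SE 0.12, adjusted p = 0.0171 in limma), a call that ended without Uba3 cKO replicate 1, Uba3 cKO replicate 3 or control replicate 2.

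Of 14 genes listed around Ppargc1a transcription, mostly for its activators, Ppp3ca alone was called, with a list median of -0.05. The list also holds Zkscan3 (-0.12, not called), which is not taken here as an activator. Ppp3ca, a catalytic subunit of calcineurin, rose by 0.35 (SE 0.10, adjusted p = 0.0479 in limma), and the call ended without any single library (adjusted p 0.0669 to 0.153). Of 12 kept nuclear receptors and other partners 4 rose and none fell, with a median of 0.07. Among all tested genes 5.64% were called higher and 2.50% lower, with a median of -0.01. The number that rose was 2 without a filter, with quantile normalization and with the replicate block, and with that block 1 gene of the list was called lower. Rxra, the retinoid X receptor that pairs with many nuclear receptors, was chosen after its values were seen. It had a difference of -0.39 (SE 0.12, adjusted p = 0.0651 in limma) and groups that did not overlap. Thrb and Thra encode thyroid hormone receptors, which activate Ppargc1a in liver. Thrb stood at 9.52, 9.37 and 9.48 in Uba3 cKO libraries, against 8.90, 8.85 and 8.90 in control libraries. The pools of each group lay close together, and Thrb rose by 0.57 (SE 0.10, adjusted p = 0.00288 in limma). Thra rose by 0.37 (SE 0.10, adjusted p = 0.0370 in limma). Hcfc1, a cofactor that PRC and GABP bind, rose by 0.40 (SE 0.10, adjusted p = 0.0250 in limma). Yy1, a zinc-finger factor through which PGC-1 alpha acts in muscle, rose by 0.37 (SE 0.10, adjusted p = 0.0391 in limma). The calls of Thra and Yy1 each ended in 5 of the 6 fits without 1 library and that of Hcfc1 in 4, while those of Thrb and Sirt1 held in all 6 (adjusted p up to 0.0216 and 0.0285).

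The list of 25 known targets of NRF-1, GABP and ERR alpha had 2 genes that fell, none that rose and 23 that were not called. Among all 17450 tested genes 8.14% were called, 5.64% higher and 2.50% lower. The median log2 difference of the list was -0.11, with 17 differences below 0 and 8 above. In the fits without 1 library this median ranged from -0.13 to -0.05. For all tested genes the median was -0.01, with 9032 differences below 0 and 8418 above. Polrmt, the mitochondrial RNA polymerase, stood at 9.17, 8.82 and 8.79 in Uba3 cKO libraries, against 9.26, 9.31 and 9.53 in control libraries. The groups did not overlap, but Uba3 cKO replicate 1 lay close to the lowest control library, and the difference was -0.44 (SE 0.12, adjusted p = 0.0417 in limma). Alas1, the first enzyme of heme synthesis, stood at 10.19, 10.05 and 10.15 in Uba3 cKO libraries, against 10.36, 10.54 and 10.56 in control libraries. Its difference was -0.36 (SE 0.10, adjusted p = 0.0405 in limma). The call of Polrmt ended without Uba3 cKO replicate 2 or 3 or control replicate 2 or 3, and that of Alas1 without each library other than control replicate 1 (adjusted p as high as 0.189 for Polrmt and 0.169 for Alas1). Chosen after its value was seen, Tfam, which packages mitochondrial DNA and starts its transcription, stood at 10.28, 10.41 and 10.68 in Uba3 cKO libraries, against 10.56, 10.41 and 10.38 in control libraries. Its groups overlapped, and its log2 difference of 0.005 had a 95% interval of -0.24 to 0.25.

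**Figure D4:**
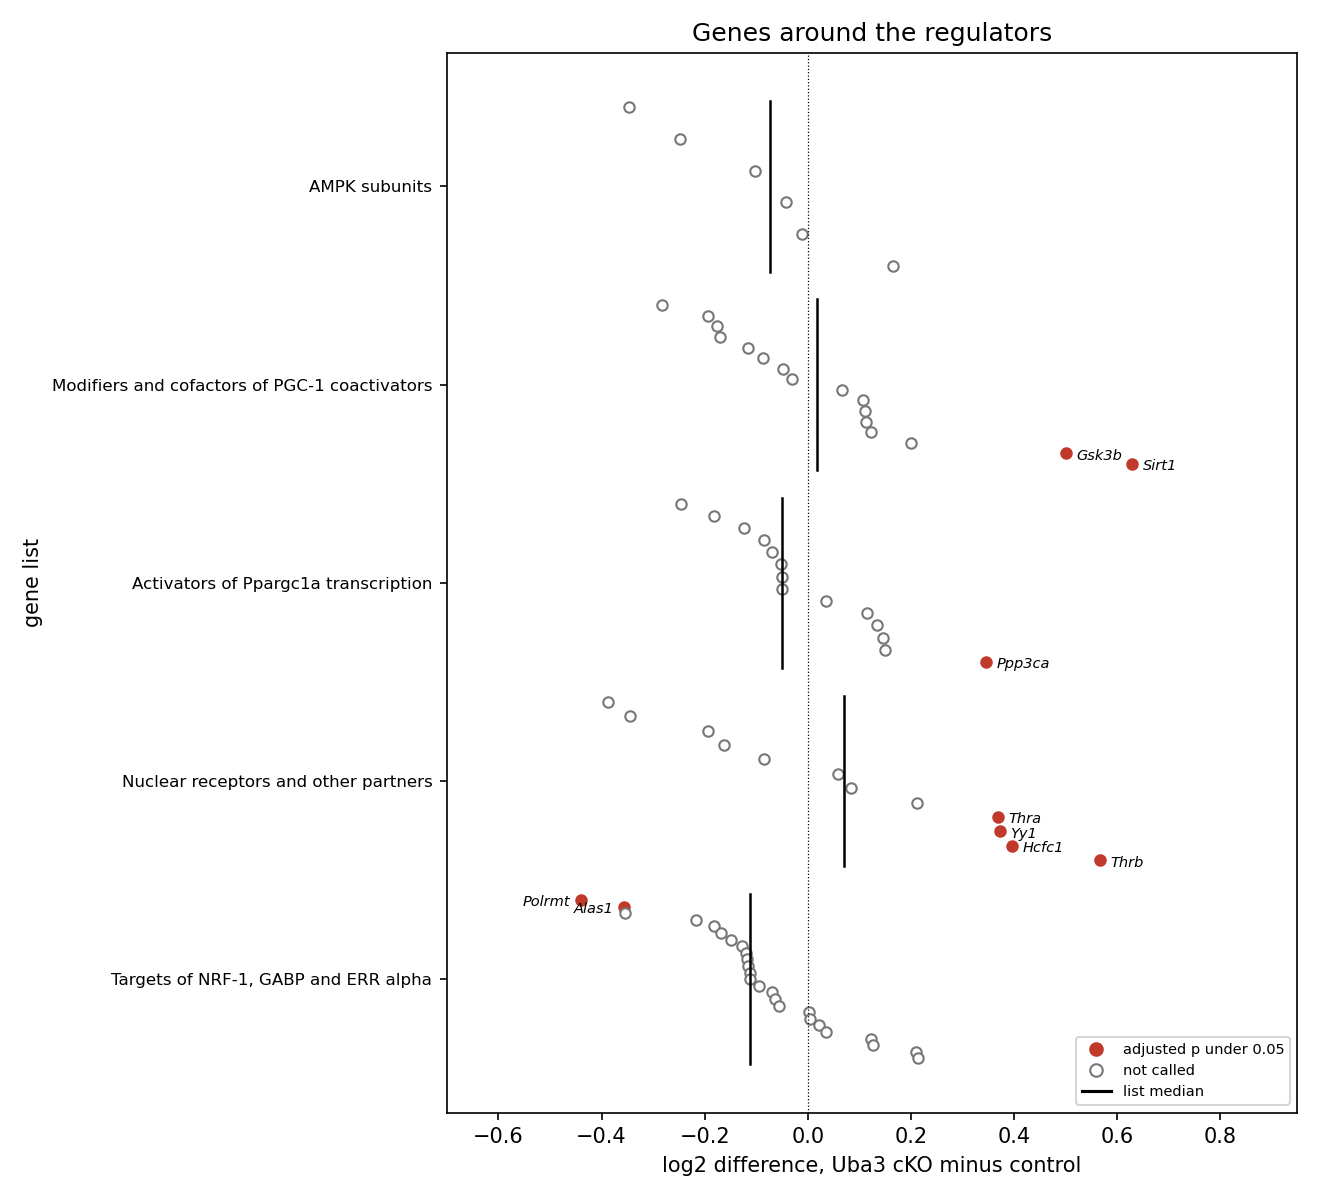
Log2 difference, Uba3 cKO minus control, of the 73 kept genes of 5 lists around the regulators, with lists on the y axis. Each point is a gene, filled and named where its adjusted p was under 0.05, and the bar is the list median; called genes lie above 0 in 3 lists and below 0 in the list of targets.

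With 1 library left out, the differences of Ppargc1a, Ppargc1b and Gabpa stayed between 0.15 and 0.20, 0.28 and 0.35, and 0.26 and 0.40, on the log2 scale. Those of Gabpb1 (0.06 to 0.13) and Esrra (-0.09 to -0.01) also kept their sign. That of Pprc1 ranged from -0.08 to 0.16 and changed sign. None of the 7 members was called in limma in any of these 6 fits, where the number of genes called in all ranged from 618 to 1637.

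**Figure D5:**
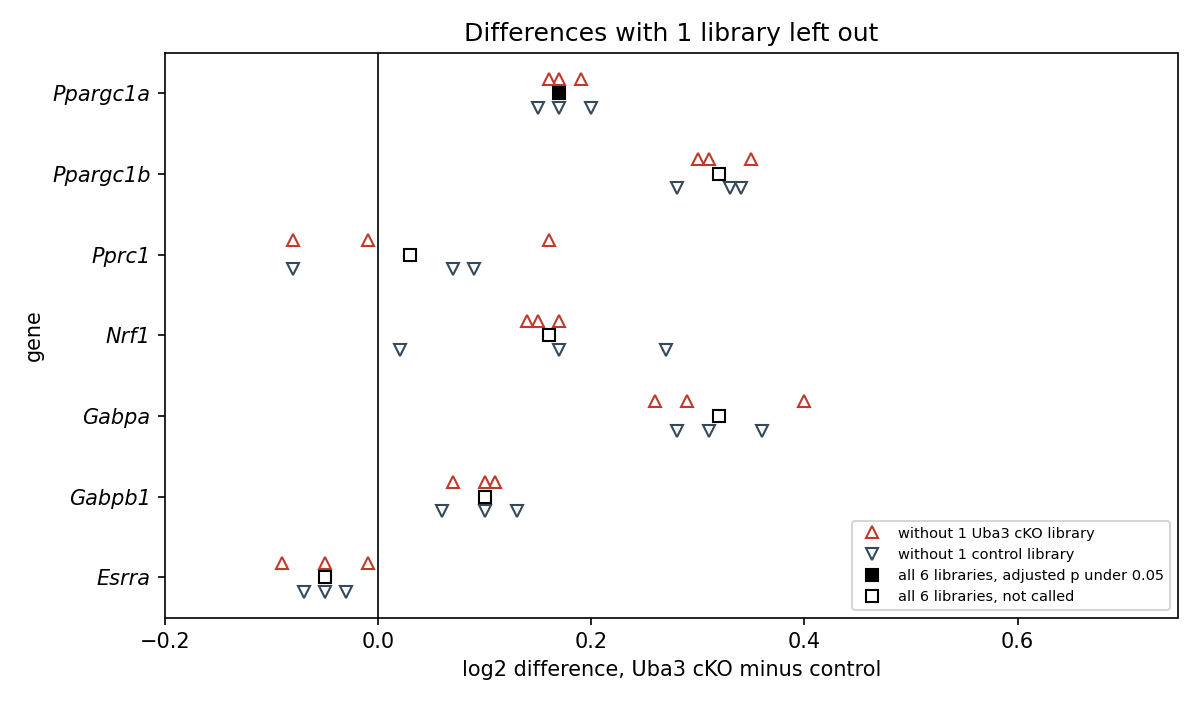
Log2 difference of each regulator, Uba3 cKO minus control, with all 6 libraries (squares, filled where called) and with 1 library left out (upward triangles, without 1 Uba3 cKO library; downward triangles, without 1 control library). Ppargc1a, Ppargc1b and Gabpa stay above 0.1 in every fit, Nrf1 spreads from 0.02 to 0.27, and Pprc1 lies on both sides of 0.

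The genes with the most similar profiles over the 6 libraries were found by the root mean square distance between log2 values centred on each gene's mean. For Ppargc1a they were Slc6a14 (0.02) and Itm2b (0.02), beside a root mean square of 0.09 of Ppargc1a about its own mean. For Ppargc1b they were Zfp551 (0.01) and Fnbp1l (0.02), for Pprc1 Spg21 (0.04) and Heyl (0.05), and for Nrf1 Ppig (0.03) and Notch2 (0.03). For Gabpa they were Azin1 (0.04) and Polr3e (0.04), for Gabpb1 Myl4 (0.01) and Prkg2 (0.01), and for Esrra Anapc13 (0.01) and Sdccag8 (0.01). No member was among the 2 nearest genes of another member. Only 2 genes were taken from all named protein-coding genes kept, so this does not tell whether the members vary together.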

How the data were processed

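Per the labels' protocols, PicoPure-extracted RNA was made into Illumina TruSeq libraries and read on a NovaSeq. Build GRCm39 and the tools fastp, STAR, featureCounts and DESeq2 are named, with no versions, by the submitters' processing notes. The deposited table holds log2 values that the authors normalized between libraries (0.0363 to 18.01, with no exact 0). Its transform is not named, no read counts were used and library depth is unknown, so precision can be judged from the replicates only. All 6 columns of values were used.

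Symbols were found for 27660 of 28738 IDs, in GENCODE M21 or, for IDs absent from it, in a separate list of gene names. The exon and transcript lengths and overlaps from GENCODE M21 belong to GRCm38, an earlier build, as do the RefSeq windows. Genes with a linear value (2 to the power of the log2 value) of 10 or more in at least 3 libraries were kept. The test of Uba3 cKO against control was limma (version 3.58.1, run under R 4.3.3) with a trend in intensity and no pseudocount. Calls needed a p under 0.05 after Benjamini-Hochberg adjustment over all 17450 kept genes. Every adjusted p comes from this tool. On simulated data for this comparison (17450 genes), the fit recovered 12%, 58%, 96% and 100% of genes changed by 0.3, 0.6, 1 and 1.5 on the log2 scale, and 6 of its 139 calls were false. The real comparison had 1421 calls. The adjustment over all genes was therefore stricter in the simulation, and these shares do not carry over directly to the real fit.

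The members and lists were chosen with earlier results of these data known. The text names all members, Uba3, the called genes of each list (or the 2 with the highest level) and the 2 nearest protein-coding profiles of each member, together with genes whose exons overlap a member, a few markers of other cell types, and genes said to be chosen after their values were seen. Alternatives covered the pseudocount, filter, scaling, variance model, a replicate block, a length and GC correction and leaving out each library.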

Additional observations from a re-analysis of the deposited data

How the results depend on the processing

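Uba3, Nrf1, Gabpa, Gabpb1 and Esrra kept their direction and their side of the threshold in every setting in which they were tested, and so did Pprc1 apart from fits without 1 library. The stricter filter (50 in place of 10) dropped Ppargc1a and Esrra. Ppargc1a was not called without a filter (0.17, adjusted p = 0.0548), without the intensity trend (0.17, adjusted p = 0.141), after the length and GC correction (0.12, adjusted p = 0.217) or with that correction and the replicate block (0.12, adjusted p = 0.291). Ppargc1b was called without the intensity trend (0.32) and after the length and GC correction (0.36), so in these 2 settings the 1 called member was Ppargc1b in place of Ppargc1a. No member (0) was called with the stricter filter, which leaves Ppargc1a out of the test, nor without a filter or with the correction and the block, where the cause was not tested. Without 1 library, the number of members called was 0 in each fit, the difference of Ppargc1a ranged from 0.15 to 0.20, that of Pprc1 from -0.08 to 0.16, and the genes called in all from 618 to 1637 (main 1421), with 681 and 709 when Uba3 cKO replicates 1 and 3 were left out in turn and 780 and 618 when control replicates 2 and 3 were. The difference of Pprc1 was below 0 in 3 fits, at -0.01 without Uba3 cKO replicate 1 and at -0.08 without the second replicate of either group.

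Replicate numbers are shared between the groups in the labels, but deviations of same-numbered libraries from their group means correlated at -0.085, -0.198 and -0.0538 across genes. The numbers were therefore not taken as pairs, and no library correlated best with its own number. Uba3 cKO replicate 1 correlated best with control replicate 3 (0.194), replicate 2 with control replicate 1 (0.277) and replicate 3 with control replicate 2 (0.249). A block by that matching was not tested, and the replicate block used the numbers in the labels. With the replicate block 1258 genes were called, and Ppargc1a kept a difference of 0.17 (adjusted p = 0.0498 in limma). Of the list genes named, Sirt1, Gsk3b, Thrb and Hcfc1 kept their calls in all 12 settings that keep every library, Polrmt in 10, Alas1 and Thra in 9, Yy1 in 8 and Ppp3ca in 6. Quantile normalization moved the share of higher calls to 63.6%, against 69.2% in the reported fit. Because depth is unknown, the levels of Ppargc1a and Esrra carry no counting interval.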
